A study of Mus musculus with 75 samples.

Results

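A set of 44 genes of the interferon response and of class I antigen presentation was followed through the RNA libraries of a mouse study of DNMT3A isoforms. The genes were chosen by name, from what they are known to do, with earlier results of these data known. The cortex and nuclei files listed 43 of them among 37310 gene identifiers, and the hippocampus files listed all 44 among 55487. Psmb9, a subunit of the immunoproteasome, was the gene found in the hippocampus files only. The study altered DNMT3A, an enzyme that methylates cytosines of DNA and comes in 2 isoforms, of which DNMT3A1 is the longer and DNMT3A2 the shorter.

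Interferons are secreted proteins that cells release when they detect foreign or misplaced nucleic acid. Type I interferons act through a complex that includes STAT2 and IRF9 and binds the interferon-stimulated response element of target promoters, and promoters that respond to interferon gamma often hold gamma-activated sites. Their target genes code for antiviral proteins, for guanosine triphosphate binding proteins of the GBP family and for the machinery that loads peptides onto class I molecules, which present them to cytotoxic T cells. In brain, microglia, vessel cells and, at a lower level, neurons and astrocytes are known to use these genes.

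All mice were of strain C57BL/6 and 21 days old, and every sample used here was RNA of cerebral cortex, hippocampus or cortical neuron nuclei sorted with an antibody against NeuN. Cortex had 3 Dnmt3a1-/-, 2 Dnmt3a2-/- and 3 Dnmt3a1_delta_N libraries, the last named for a deletion in the N-terminal part of DNMT3A1. Wild type cortex had 8 libraries in 3 numbering series. The plain series of 3 was set against Dnmt3a1-/-, the r series of 2 against Dnmt3a2-/- and the n series of 3 against Dnmt3a1_delta_N, a tie that the labels do not state. For hippocampus, 3 libraries of Dnmt3a1-/- and 3 of wild type were used, and the nuclei had 2 libraries labelled Dnmt3a1-/- and 2 of wild type. The genotypes name alleles lost or cut in the whole animal, and no cell-type restricted deletion is given. The labels do not say whether each library is a different mouse, and the p-values then describe no more than the spread among these libraries, which may be technical. In bulk RNA, fewer cells of a type and less RNA per cell cannot be told apart.

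The promoters of 5 genes are shown first because they span the roles in the set and carry the letters that interferon-activated factors are known to bind. Each run holds the 250 bases before the RefSeq transcription start on build GRCm38, 5′ to 3′ on the gene's strand. Capitals mark the core of the interferon-stimulated response element (GAAA, any 2 bases, GAAA, or on the other strand TTTC, any 2 bases, TTTC) and in Irf1 the gamma-activated site (TTC, any 3 bases, GAA, which reads the same on both strands).
Isg15, chr4:156200819-156201068, minus strand: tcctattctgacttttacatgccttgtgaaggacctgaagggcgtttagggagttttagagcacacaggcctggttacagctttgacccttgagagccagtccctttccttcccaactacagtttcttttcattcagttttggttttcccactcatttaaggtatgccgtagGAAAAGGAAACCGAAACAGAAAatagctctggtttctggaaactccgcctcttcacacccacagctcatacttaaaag
Ifit3, chr19:34583279-34583528, plus strand: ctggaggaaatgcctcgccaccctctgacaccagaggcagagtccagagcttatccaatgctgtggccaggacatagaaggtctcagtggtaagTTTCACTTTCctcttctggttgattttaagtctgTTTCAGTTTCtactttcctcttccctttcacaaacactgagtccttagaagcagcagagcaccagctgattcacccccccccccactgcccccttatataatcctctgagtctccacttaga
Gbp2, chr3:142620413-142620662, plus strand: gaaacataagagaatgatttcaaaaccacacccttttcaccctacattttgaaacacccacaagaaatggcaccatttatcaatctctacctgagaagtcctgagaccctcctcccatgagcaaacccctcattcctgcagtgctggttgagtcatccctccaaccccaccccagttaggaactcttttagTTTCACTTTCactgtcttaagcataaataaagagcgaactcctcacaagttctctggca
B2m, chr2:122147437-122147686, plus strand: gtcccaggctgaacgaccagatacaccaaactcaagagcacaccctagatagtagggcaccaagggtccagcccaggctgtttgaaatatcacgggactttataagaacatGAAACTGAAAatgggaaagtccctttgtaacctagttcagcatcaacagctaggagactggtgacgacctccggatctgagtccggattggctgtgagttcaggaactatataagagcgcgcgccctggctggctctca
Irf1, chr11:53769764-53770013, plus strand: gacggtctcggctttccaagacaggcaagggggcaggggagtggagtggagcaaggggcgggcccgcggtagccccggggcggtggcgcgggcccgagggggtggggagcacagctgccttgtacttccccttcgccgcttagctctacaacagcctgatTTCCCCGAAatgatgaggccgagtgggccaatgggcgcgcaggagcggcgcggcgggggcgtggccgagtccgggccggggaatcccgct
Isg15 codes for a ubiquitin-like modifier, Ifit3 for a protein that binds viral RNA complexes, Gbp2 for a guanylate-binding protein, B2m for the light chain of class I molecules and Irf1 for a transcription factor of the interferon gamma response. In Isg15 the core stands 3 times in an overlapping run whose first bases lie at -78, -72 and -66 from the start. Ifit3 holds it at -156 and -122, Gbp2 at -59 and B2m at -139, while the site in Irf1 begins at -90.

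A promoter window of 300 bases (250 before and 50 after the start) was found for 33 of the 44 genes, as 39 windows. The response element core was present on either strand in 15 of the 39 windows, or 38.5%, against 1131 of all 32851 windows in the table, or 3.44%. The gamma-activated site was present in 8 of the 39, or 20.5%, against 2726 windows, or 8.3%. By role, the core was in 5 of 10 windows of sensors and regulators, 6 of 13 of antiviral effectors, 3 of 9 of GTPases, PARP family and other induced genes, and 1 of 7 of class I presentation. These genes were chosen as interferon targets, so the shares describe the set, and a match of letters is no evidence of binding.

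Gene totals ran from 8.7 to 39.0 M counts (M, mega) per library, and levels below are counts per M gene counts (CPM), not divided by transcript length. As a check of the labels, Dnmt3a itself fell by 1.02 ± 0.07 on the log2 scale in the Dnmt3a1-/- cortex libraries, which held 73.2, 80.7 and 74.0 CPM where wild type held 152, 165 and 146 CPM (adjusted p = 1.16e-05). It fell by 1.04 ± 0.09 in hippocampus (71.5, 76.1 and 72.3 CPM in Dnmt3a1-/- against 162, 149 and 134 CPM, adjusted p = 0.000112). Nuclei labelled Dnmt3a1-/- held 382 and 369 CPM where wild type nuclei held 405 and 399 CPM, which did not pass at -0.10 ± 0.15 (adjusted p = 0.894). The nuclei are therefore called libraries labelled Dnmt3a1-/- below. Dnmt3a2-/- cortex held 132 and 144 CPM of Dnmt3a against 153 and 145 CPM in wild type r1 and r2. Dnmt3a1_delta_N cortex held 135, 139 and 139 CPM against 147, 162 and 163 CPM in n1, n2 and n3. Neither was called. Counts per gene do not separate the isoforms, so these values are no check of those 2 labels. Among wild type cortex libraries r2 stood apart in these genes, and it is described with the Dnmt3a2-/- comparison, given with and without it. Marker levels in nuclei were those of neurons, with summed neuron markers at 5620 to 6120 CPM and summed microglia markers at 34.8 to 41.5 CPM over the 4 libraries. Microglia markers summed to 1240 to 1720 CPM in the 8 wild type cortex libraries.

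In cortex of Dnmt3a1-/- mice, 14 of the 43 genes rose and none fell. A gene is said to rise or fall where the adjusted p was under 0.05. Over all 15933 genes tested, 8.95% were called higher and 8.91% lower. The log2 fold change was positive for 39 of the 43, against 51% of all genes, and its median was 0.29, against 0.01 over all genes. By role, 3 of 9 sensors and regulators rose, 7 of 17 antiviral effectors, 2 of 12 GTPases, PARP family and other induced genes, and 2 of 5 class I genes. After TMM scaling, 19 genes had every Dnmt3a1-/- library above every wild type library and 1 gene had every one below, against 18.5% and 17.5% of all genes, and such gaps are counted on that scale throughout.

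Among sensors and regulators, Usp18 (ENSMUSG00000030107), a protease that removes ISG15 and damps the type I receptor, had 4.60, 3.85 and 5.46 CPM in Dnmt3a1-/- libraries 1, 2 and 3, against 2.09, 2.87 and 2.59 CPM in wild type libraries 1, 2 and 3. The groups did not overlap, and Usp18 rose by 0.88 ± 0.19 (SE, adjusted p = 0.00686). Irf7, the transcription factor that amplifies type I interferon production, had 7.24, 5.83 and 8.65 CPM in Dnmt3a1-/- cortex against 5.52, 4.92 and 4.84 CPM in wild type. It rose by 0.50 ± 0.16 (adjusted p = 0.0389), with library 2 close to wild type. Isg15 (ENSMUSG00000035692) had 4.60, 3.20 and 3.91 CPM in Dnmt3a1-/- cortex against 2.58, 2.57 and 2.64 CPM in wild type. It rose by 0.55 ± 0.17 (adjusted p = 0.0421), again without overlap. The 6 others did not pass, at 0.58 ± 0.19 for the RNA helicase gene Dhx58 (adjusted p = 0.0501), 0.26 ± 0.10 for Irf9, 0.25 ± 0.17 for Trim30a, 0.23 ± 0.09 for Stat2, 0.20 ± 0.12 for Irf1 and 0.18 ± 0.15 for Ifih1, the gene of the RNA sensor MDA5.

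The antiviral effectors held the most calls. Rnf213 (ENSMUSG00000070327), a large ubiquitin ligase active against intracellular bacteria, stood at 42.7, 36.8 and 43.6 CPM in Dnmt3a1-/- cortex against 29.8, 27.4 and 25.1 CPM in wild type. All 3 mutant libraries lay above all 3 of wild type, and the rise was 0.57 ± 0.09 (adjusted p = 0.00103). Ifit3 (ENSMUSG00000074896) stood at 9.62, 8.08 and 13.1 CPM in Dnmt3a1-/- cortex against 5.89, 5.48 and 4.78 CPM in wild type, a rise of 0.93 ± 0.17 (adjusted p = 0.00336) without overlap. Mx2, of a family of dynamin-like GTPases, had 4.68, 3.81 and 5.65 CPM in Dnmt3a1-/- cortex against 2.74, 2.80 and 2.31 CPM, a rise of 0.84 ± 0.18 (adjusted p = 0.00725). Its relative Mx1 was lower in reads, at 1.36, 0.991 and 2.09 CPM in Dnmt3a1-/- cortex against 0.368, 0.745 and 0.675 CPM, and rose by 1.33 ± 0.35 (adjusted p = 0.0197). The groups did not overlap for Mx1 or for Mx2.

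Xaf1, which codes for an antagonist of an apoptosis inhibitor, was at 5.53, 4.54 and 6.26 CPM in mutant cortex, against 3.56, 3.58 and 2.70 CPM in wild type, and rose by 0.71 ± 0.17 (adjusted p = 0.0115). Oasl2, a member of the oligoadenylate synthetase family that senses double-stranded RNA, had 9.62, 6.21 and 9.67 CPM in Dnmt3a1-/- cortex against 5.93, 4.66 and 4.16 CPM and rose by 0.76 ± 0.18 (adjusted p = 0.0136). Cmpk2, a mitochondrial nucleotide kinase, had 19.3, 18.1 and 25.8 CPM in Dnmt3a1-/- cortex against 15.3, 15.5 and 16.6 CPM and rose by 0.42 ± 0.13 (adjusted p = 0.0364). None of these 3 genes had overlapping groups, and in each the second Dnmt3a1-/- library was the lowest of its group. The 10 other effectors did not pass. They ran from -0.31 ± 0.24 for Rsad2, the gene of the antiviral enzyme viperin, to 0.63 ± 0.29 for Ifit1, and Bst2, which tethers budding viruses, was nearest to the threshold at 0.49 ± 0.17 (adjusted p = 0.0568). Samd9l, a restriction factor for poxviruses, was the other one below 0, at -0.22 ± 0.14.

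Lgals3bp (ENSMUSG00000033880), a secreted glycoprotein that binds galectins, had the smallest adjusted p of the set. Dnmt3a1-/- libraries held 41.5, 34.5 and 44.7 CPM against 24.7, 25.3 and 25.4 CPM in wild type, and rose by 0.67 ± 0.10 (adjusted p = 0.000654). Parp12 (ENSMUSG00000038507), a mono-ADP-ribosyltransferase, had 20.3, 16.3 and 19.5 CPM in Dnmt3a1-/- cortex against 13.1, 11.6 and 12.8 CPM and rose by 0.57 ± 0.11 (adjusted p = 0.00279). The wild type values of both genes lay within a narrow band and below every mutant value. The 10 others of this role group did not pass. Parp14, a further ADP-ribosyltransferase, stood at 0.39 ± 0.13 (adjusted p = 0.0594), Parp9 at 0.29 ± 0.12 and its partner Dtx3l at 0.15 ± 0.16, and the GBP genes were spread from 0.20 ± 0.11 for Gbp7 through 0.03 ± 0.12 for Gbp3 to -0.41 ± 0.17 for Gbp2 (ENSMUSG00000028270). Gbp2 had 4.60, 3.62 and 5.5 CPM in Dnmt3a1-/- cortex against 6.95, 6.04 and 5.12 CPM in wild type (adjusted p = 0.111), with the third library of each group overlapping.

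Class I presentation genes went different ways. H2-D1 (ENSMUSG00000073411), a heavy chain of class I molecules, was at 61.9, 62.0 and 56.9 CPM in Dnmt3a1-/- cortex against 47.7, 50.7 and 45.3 CPM in wild type and rose by 0.32 ± 0.07 (adjusted p = 0.00556). Tap1, a subunit of the transporter that brings peptides to class I molecules, had 6.30, 5.83 and 6.64 CPM in Dnmt3a1-/- cortex against 4.17, 4.70 and 3.88 CPM and rose by 0.55 ± 0.14 (adjusted p = 0.0144). H2-K1, the other heavy chain, stood at 0.15 ± 0.10 and the immunoproteasome subunit gene Psmb8 at 0.10 ± 0.14. B2m (ENSMUSG00000060802), whose protein pairs with both heavy chains, had 134, 130 and 134 CPM in Dnmt3a1-/- cortex against 150, 144 and 142 CPM in wild type. Every mutant value lay below every wild type value, and the log2 difference of -0.14 ± 0.06 did not pass (adjusted p = 0.137).

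**Figure D1:**
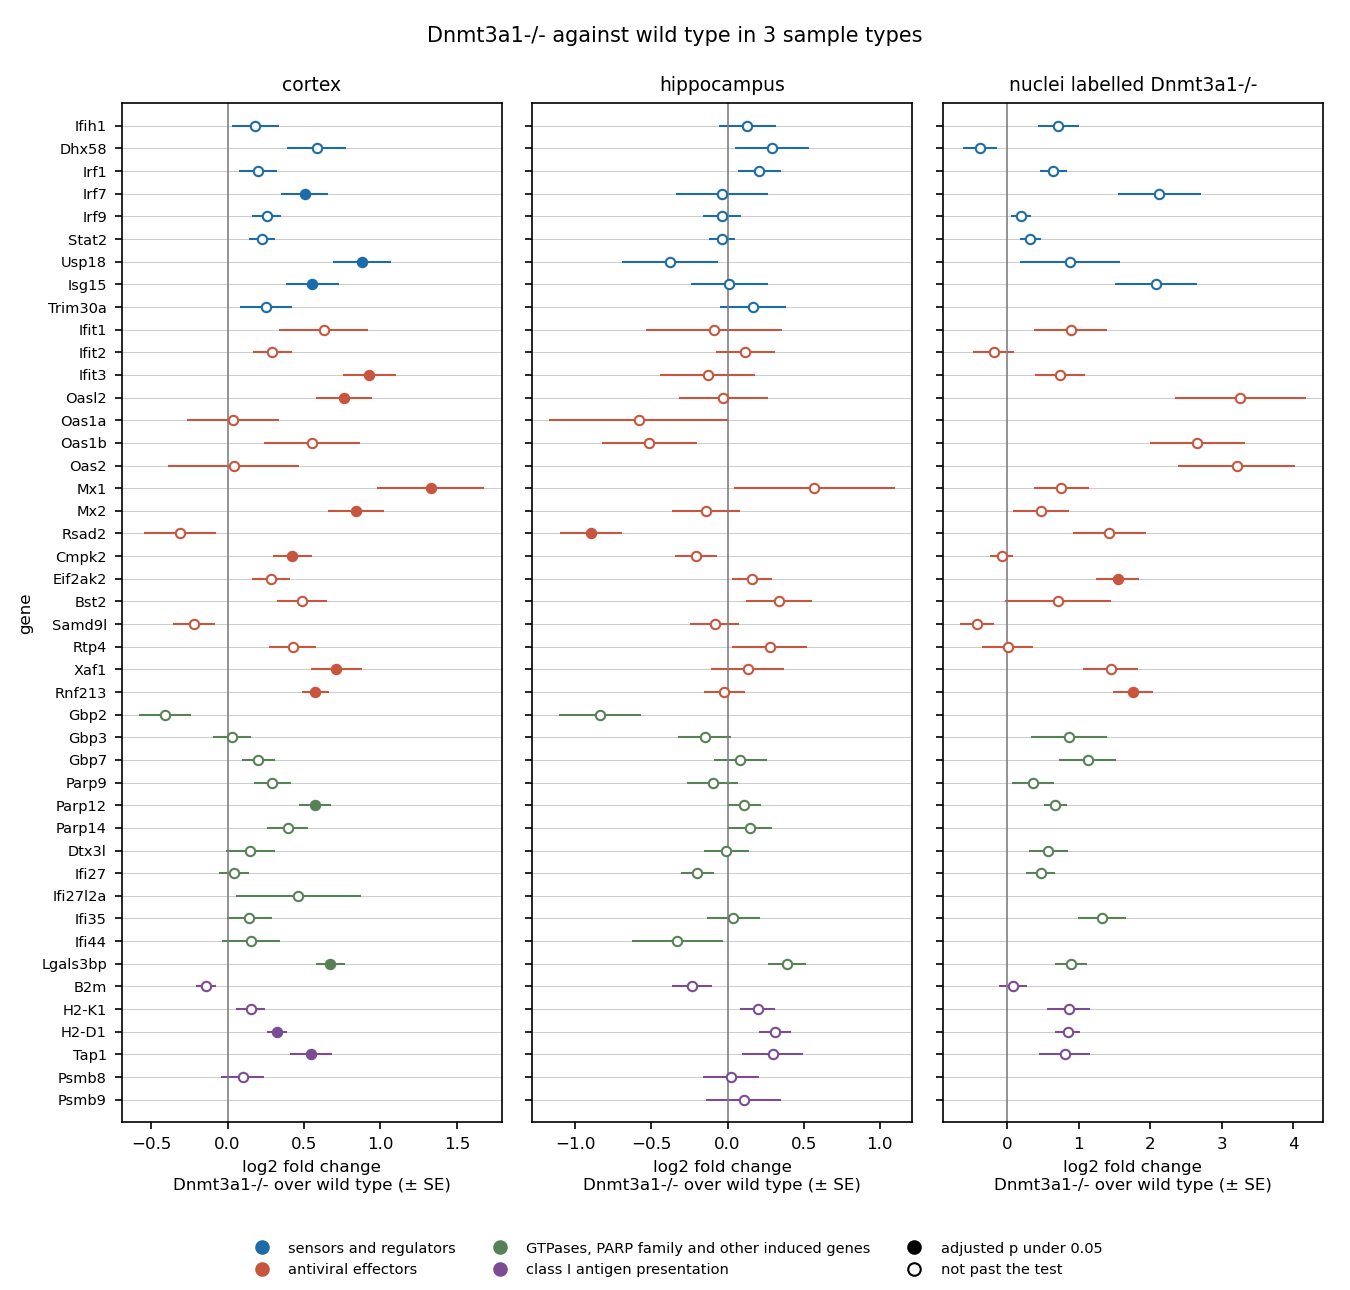
Log2 fold change of Dnmt3a1-/- over wild type (x axis, bars ± SE) for each gene (y axis, coloured by role) in cortex, hippocampus and nuclei. Filled points passed at an adjusted p under 0.05: 14 genes right of 0 in cortex, 1 gene left of 0 in hippocampus and 2 genes right of 0 in the nuclei labelled Dnmt3a1-/-.

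Same-numbered cortex libraries deviated together. Once that number was put in the model as a block, 22 of the 43 genes rose and B2m fell (adjusted p = 0.0324). Calls over all 15933 genes also went up with the block, from 2845 to 4941 either way. The 14 genes above were among the 22, joined by Dhx58, Irf9, Stat2, Eif2ak2, Bst2, Rtp4, Parp9 and Parp14. Without Dnmt3a1-/- library 3, 7 genes rose and 1 fell, and without wild type library 3, 9 rose. Over all genes these fits called 2610 of 16083 and 1599 of 16223 either way. Against all 8 wild type libraries 10 genes rose, 7 of them among the 14, and 3109 of 16415 genes were called either way. Against the 7 wild type libraries other than r2, a choice made after seeing the data, 17 rose, 12 of them among the 14. That fit called 2752 of 16342 genes either way. Lgals3bp, Rnf213, Parp12, Usp18 and Mx2 passed in each of the 12 alternative fits, while Isg15 was lost in 8, Irf7 and Cmpk2 in 6, Oasl2 in 4, Tap1 in 3 and Mx1 in 2.

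Markers of other cell types were read beside these genes. Microglia markers summed to 1470 to 1580 CPM in Dnmt3a1-/- cortex against 1500 to 1720 CPM in wild type, border macrophage markers to 29.8 to 32.8 against 25.6 to 39.3 CPM, and T and NK cell markers to 1.70 to 5.96 against 3.43 to 3.97 CPM. Most of the last sum was Cd4, and the 9 other T and NK markers summed to 0.341 to 0.533 CPM in Dnmt3a1-/- against 0.281 to 0.573 CPM. Of these, Gzmb was at 0 counts in all 6 libraries, and Cd3e had 1, 1 and 2 counts in the 3 Dnmt3a1-/- libraries against 0 in the 3 of wild type. Of the 12 microglia markers, Fcrls alone passed the test, and it fell by 0.75 on the log2 scale. Choroid plexus markers summed to 825 to 2010 CPM in Dnmt3a1-/- cortex against 122 to 751 CPM, with 8 of 8 positive and none passing. Blood markers summed to 337 to 520 CPM in Dnmt3a1-/- cortex against 521 to 822 CPM, and mural and meningeal markers to 433 to 492 against 561 to 787 CPM. The part of these last 3 differences in the genes above was not tested. In the remaining marker lists the sums of the groups overlapped. Neuron markers summed to 7240 to 7820 CPM in Dnmt3a1-/- against 7740 to 8150 CPM, and astrocyte markers to 3500 to 3730 against 3420 to 3590 CPM. Endothelium markers summed to 779 to 903 against 764 to 950 CPM. B and plasma cell markers summed to 2.01 to 2.81 against 1.24 to 2.78 CPM, and neutrophil and monocyte markers to 2.59 to 6.04 against 1.97 to 4.83 CPM.

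Genes of the same pathways outside the set were read from 6 lists. Of 51 other interferon-stimulated genes tested, 10 rose and none fell, with a median log2 fold change of 0.19. Over all genes 8.95% were called higher and 8.91% lower. Ddx60, a helicase of antiviral sensing, had 4.0, 2.59 and 4.29 CPM in Dnmt3a1-/- cortex against 1.68, 1.38 and 1.24 CPM in wild type and rose by 1.31 ± 0.23 (adjusted p = 0.00216). Cxcl10, a chemokine that draws T cells, had 1.02, 1.52 and 2.01 CPM in Dnmt3a1-/- cortex against 0.491, 0.708 and 0.394 CPM and rose by 1.54 ± 0.31 (adjusted p = 0.00504). The receptor gene Ogfr rose by 0.28 ± 0.07 and Slfn8, of the Schlafen family, by 0.76 ± 0.19. These 4 genes had no overlap between groups.

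Of 17 nucleic acid sensors and adaptors tested, 5 rose and 1 fell, against 8.95% and 8.91% of all genes. Tlr7, the endosomal sensor of single-stranded RNA, had 21.9, 22 and 28.9 CPM in Dnmt3a1-/- cortex against 14.9, 16.7 and 18.3 CPM in wild type and rose by 0.55 ± 0.12 (adjusted p = 0.00965). Zbp1, a sensor of Z-form nucleic acid, had 0.766, 0.533 and 1.25 CPM against 0.327, 0.224 and 0.225 CPM and rose by 1.71 ± 0.42 (adjusted p = 0.0134). Trim25, a ligase of the RIG-I pathway, rose by 0.36 ± 0.09, and the DNA sensor gene Aim2 by 0.46 ± 0.12. Tlr3, the endosomal sensor of double-stranded RNA, had 24.7, 23.9 and 29.1 CPM in Dnmt3a1-/- cortex against 36.0, 32.9 and 30.7 CPM in wild type and fell by 0.36 ± 0.09 (adjusted p = 0.0188).

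Of the 13 receptor and proximal signalling genes reported here, 1 fell, which is near the 8.91% of all genes called lower. Ifngr2, a chain of the interferon gamma receptor, had 42.6, 39.1 and 35.7 CPM in Dnmt3a1-/- cortex against 46.8, 45.7 and 46.0 CPM and fell by 0.25 ± 0.07 (adjusted p = 0.0341). Among 18 other class I genes, 1 rose and 3 fell, against 8.95% and 8.91% of all genes. H2-K2 rose by 1.21 ± 0.34, from few reads and with near-identical relatives that can share them, and the chaperone genes Calr, Pdia3 and Canx fell by 0.62 ± 0.15, 0.51 ± 0.12 and 0.37 ± 0.07. These chaperones fold glycoproteins of many kinds besides class I molecules. None of 8 class II genes tested passed in edgeR, nor did any have an unadjusted p under 0.05. Interferon genes themselves were barely read: over all 26 libraries Ifnb1 had 2 counts, Ifng 4, Ifne 6 and Ifnk 2. The Ifng counts were 3 in cortex and 1 in hippocampus of Dnmt3a1-/- mice and 0 in every wild type library, both Ifnb1 counts were in the wild type r series, and a count of 0 allows 0.0768 to 0.346 CPM at these depths.

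**Figure D2:**
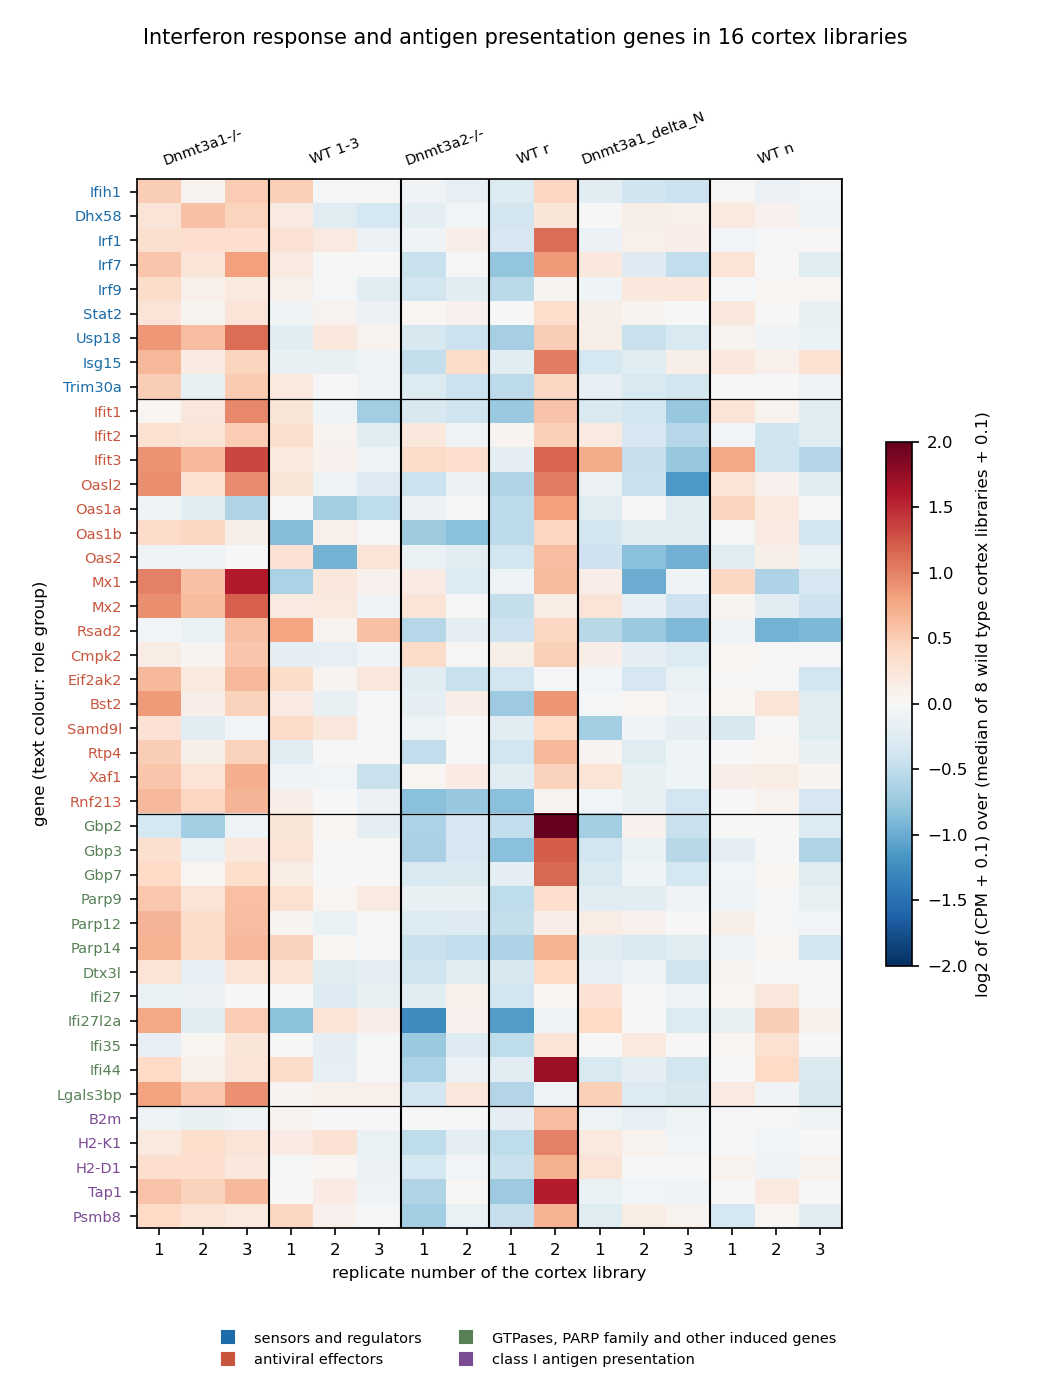
Each row is a gene (text coloured by role) and each column 1 of the 16 cortex libraries, with every mutant left of its wild type series. Colour gives log2 of CPM plus 0.1 over the median of the 8 wild type libraries plus 0.1; the medians over genes were 0.40, 0.20 and 0.46 in Dnmt3a1-/- and 0.49 in wild type r2, against -0.46 in wild type r1.

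Dnmt3a2-/- cortex libraries were set against the r series of wild type. None of the 43 genes passed in edgeR, 1 had an unadjusted p under 0.05, and DESeq2 called none, where edgeR called 0.00628% of all 15929 genes. The log2 fold change was below 0 for 40 of the 43, where 50.4% of all genes were above 0, with a median of -0.43 against 0.00 over all genes. Gbp2 stood at -2.09 ± 1.39 (3.77 and 4.62 CPM in Dnmt3a2-/- against 4.13 and 31.2 CPM in wild type r1 and r2), Ifi44 at -1.47 ± 0.88, Tap1 at -1.14 ± 1.10, Gbp3 at -1.04 ± 0.96, Gbp7 at -0.95 ± 0.59 and H2-K1 at -0.79 ± 0.71, each with an adjusted p of 1. Tap1 had 2.74 and 4.29 CPM in Dnmt3a2-/- against 2.5 and 12.7 CPM in r1 and r2, and Ifi44, an interferon-induced gene of unsettled function, 1.53 and 2.23 CPM against 2.07 and 8.15 CPM. In each of these the mutant libraries lay close to r1, and r2 stood apart. Without r2 the median over the 43 genes was 0.17, and without r1 it was -0.80. Each of these fits leaves 1 wild type library, so their calls are not read as a result. The value for Dnmt3a2-/- therefore turned with the choice of wild type library.

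Library r2 was higher than r1 in all 43 genes, by a median of 2.11-fold and a range of 1.28 to 7.56-fold. It was the highest of the 8 wild type cortex libraries in 33 of the 43, or 76.7%, against 24.1% of the 14098 genes with a mean of at least 1 CPM. By role it was highest in 7 of 9 sensors and regulators, 13 of 17 antiviral effectors, 8 of 12 GTPases, PARP family and other induced genes, and 5 of 5 class I genes. In 13 genes, or 30.2%, it lay beyond the Dixon value of 0.526 for 8 libraries, which 3.08% of those 14098 genes passed at any library. This library was singled out after its values were seen, and its labels are those of the other 7.

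GBP and class I genes were among those that set r2 apart. Gbp2 was read at 31.2 CPM in r2, against 4.13 to 6.95 CPM in the other 7 wild type libraries. Tap1 had 12.7 CPM in r2 against 2.5 to 4.81 CPM, Gbp3 27.6 CPM against 6.63 to 14.2 CPM and Gbp7 30.7 CPM against 11.6 to 15.3 CPM. H2-K1 stood at 57.0 CPM in r2 against 19.8 to 34.5 CPM, and B2m at 219 CPM against 125 to 150 CPM. These 6 genes code for guanylate-binding proteins and for parts of class I loading, and in none did r2 come within the range of the others. Irf1, the factor that drives many of them, was read at 14.8 CPM in r2 against 5.33 to 8.18 CPM. Of the 14 genes that rose in cortex Dnmt3a1-/-, 11 were highest of the 8 in r2 and 3 were not. Of those 3, Lgals3bp had 22.6 CPM in r2 against 15.8 to 26.7 CPM, Mx2 2.70 CPM against 1.70 to 2.80 CPM, and Rnf213 28.7 CPM against 15.1 to 29.8 CPM.

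**Figure D3:**
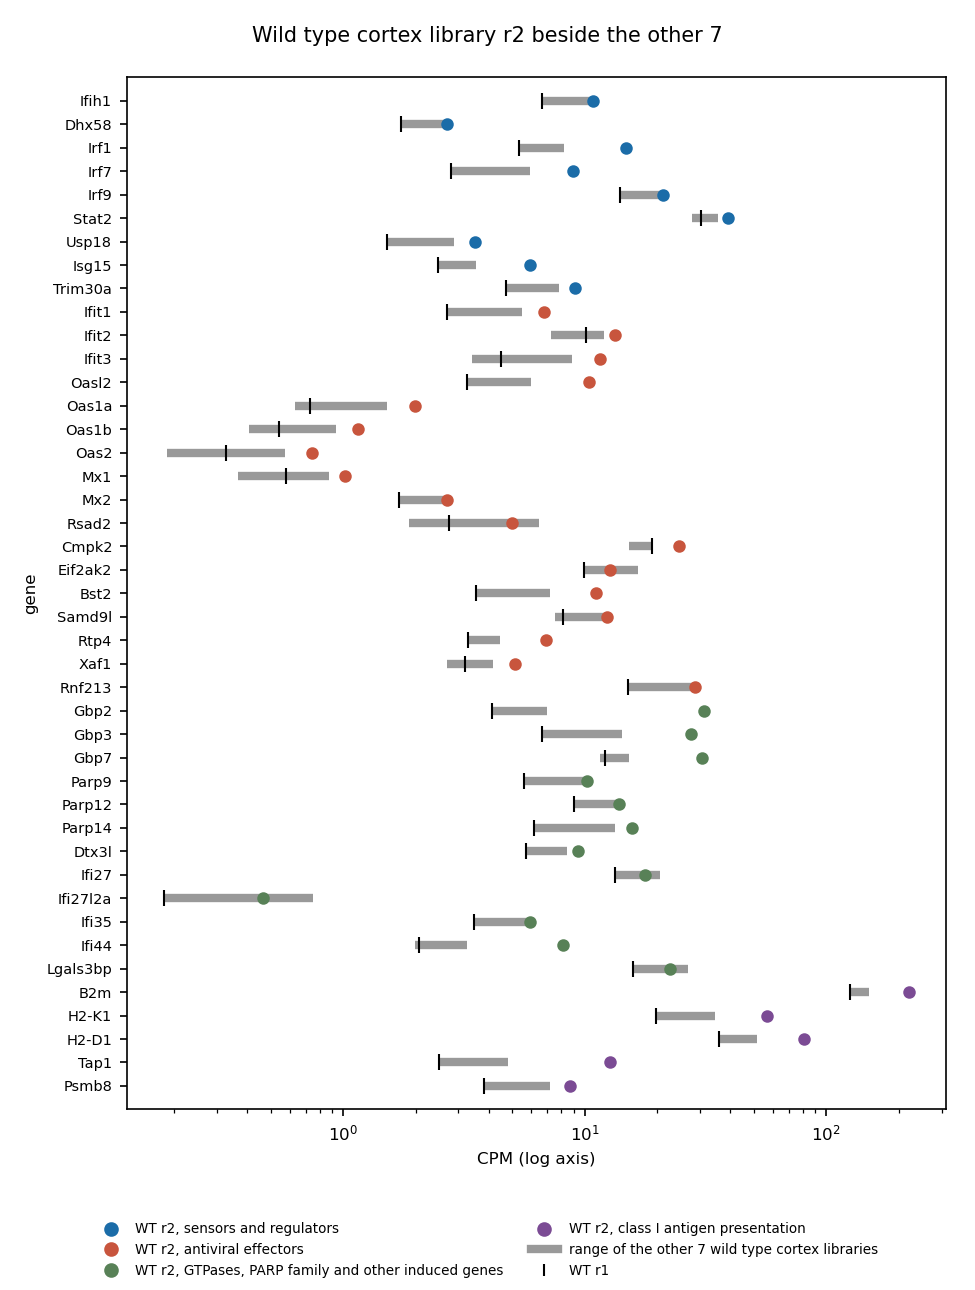
For each gene (y axis) the point is wild type cortex library r2, coloured by role, the grey bar is the range of the other 7 wild type cortex libraries and the tick is r1, in CPM on a log axis. The r2 point lies right of the bar in 33 of 43 genes, farthest in Gbp2 at 31.2 CPM against 4.13 to 6.95 CPM.

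Of the 6 pathway lists outside the set, 2 had r2 highest of the 8 libraries more often than the 24.1% of the 14098 genes. These were the other interferon-stimulated genes at 31 of 67 (46.3%) and the other class I genes at 13 of 19 (68.4%). Library r2 was highest in 1 of 18 sensors and adaptors (5.56%) and 1 of 9 class II genes (11.1%). It was highest in 0 of the 14 receptor and proximal signalling genes reported here and 0 of 10 ligands. The 24.1% covers only genes with a mean of at least 1 CPM, and the lists were not cut there. Ifna2, Ifna4, Ifna12, Ifna13, Ifnl2 and Ifnl3 had 0 counts in every library, so r2 could not be highest in them. Named after their values were seen, the interferon-inducible GTPase genes Gbp4, Igtp, Irgm2 and Iigp1 had 49.6, 43.2, 44.4 and 30.3 CPM in r2, against maxima of 3.56, 7.94, 11.6 and 3.39 CPM in the other 7. Nlrc5, the activator of class I genes, had 6.82 CPM in r2 against 0.549 to 1.41 CPM. Ifng had no count in r2, which allows up to 0.093 CPM, and Ifnb1 had 1 count. Markers of microglia summed to 1240 CPM in r2 against 1240 to 1720 CPM in the other 7, markers of T and NK cells to 4.15 against 2.89 to 5.12 CPM, and markers of neutrophils and monocytes to 2.85 against 0.688 to 4.83 CPM. Cd4 made up 3.1 of the 4.15 CPM, and the 9 other T and NK markers summed to 1.05 CPM in r2 against 0.281 to 0.573 CPM. Among them r2 had the most reads of the 8 libraries for the cytotoxic granule genes Gzma (18 counts against 0 to 3), Nkg7 (4 against 0 to 2) and Gzmb (3 against 0 to 1), with Cd3d and Cd3e at 0 counts. The part of these markers was not tested. Choroid plexus markers summed to 24.4 CPM in r2, below the 32.9 to 751 CPM of the others.

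**Figure D4:**
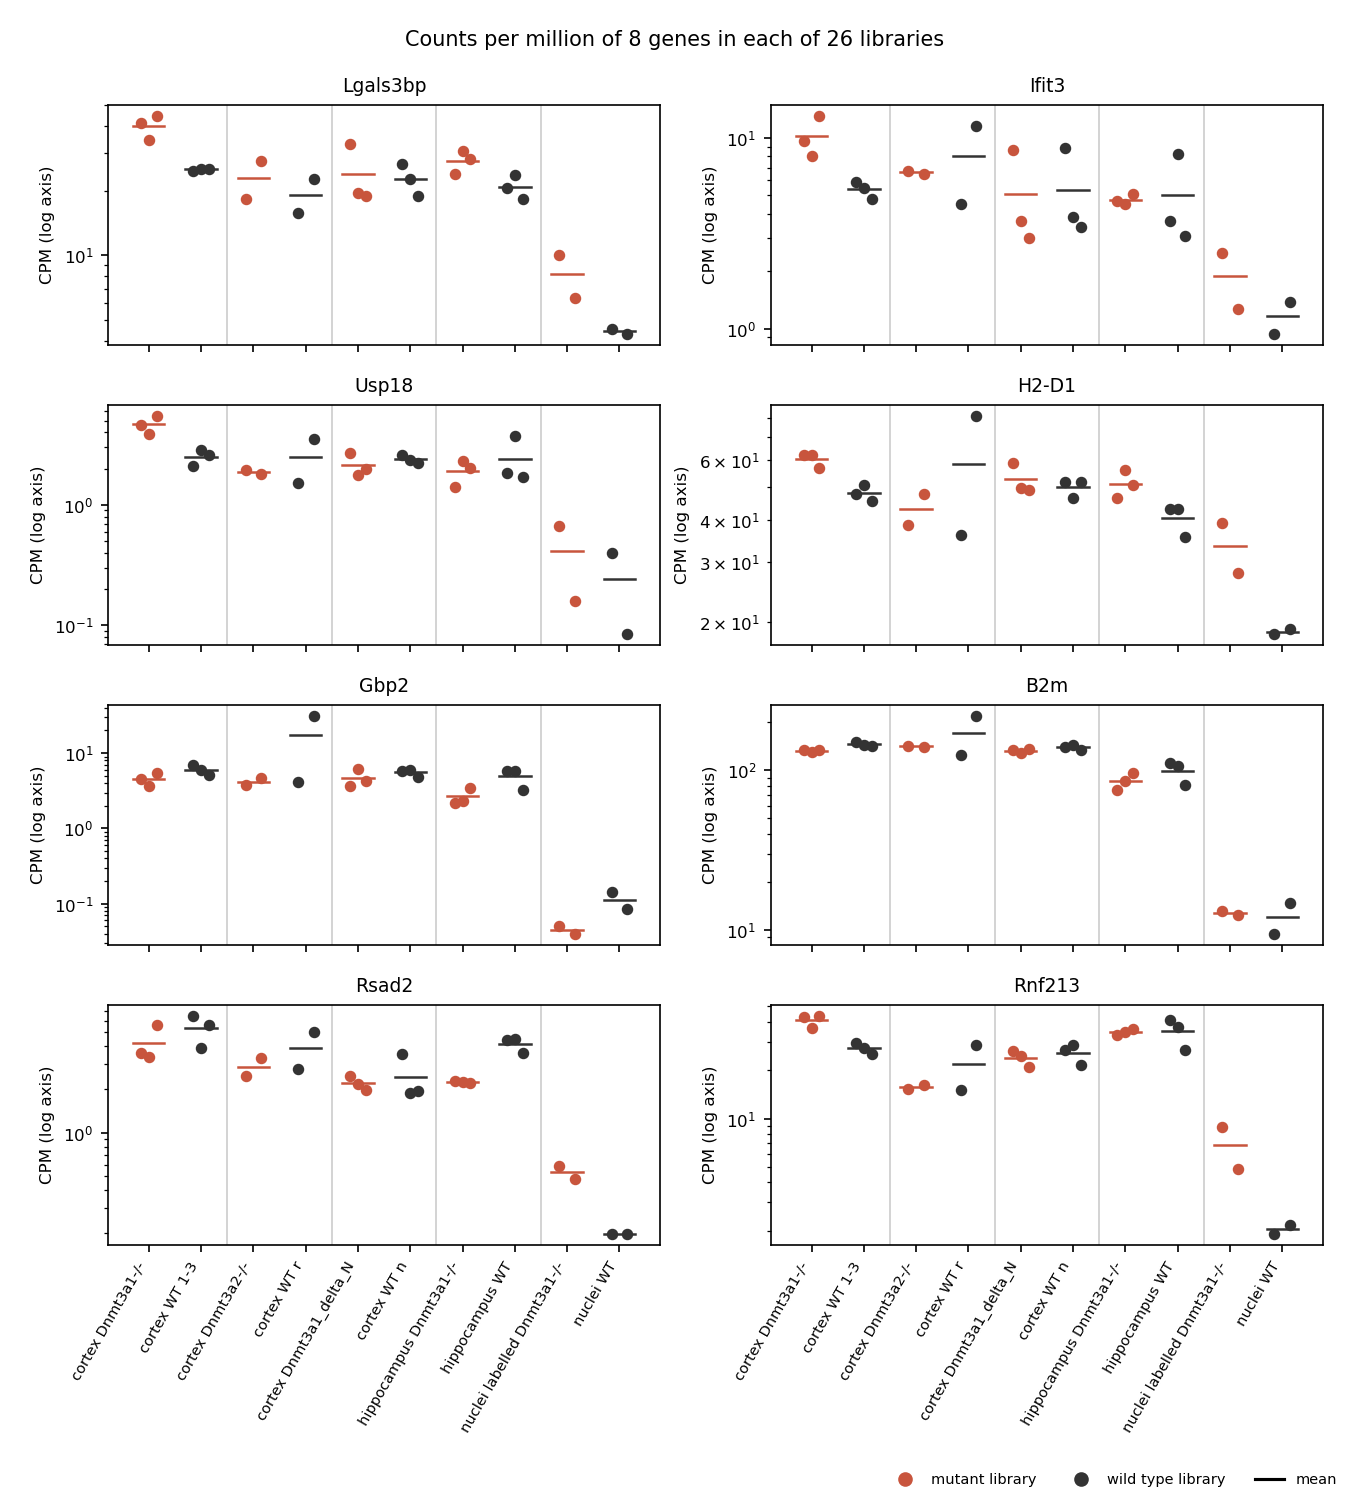
CPM on a log axis (y) in every one of the 26 libraries for Lgals3bp, Ifit3, Usp18, H2-D1, Gbp2, B2m, Rsad2 and Rnf213, by group (x), with each mutant left of its wild type and a line at each group's mean. Gbp2 shows wild type r2 at 31.2 CPM above all other cortex libraries, and Rsad2 shows the hippocampus Dnmt3a1-/- libraries below their wild type.

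Dnmt3a1_delta_N cortex gave no call among the 43 genes in edgeR, which called none of 15881 genes (0%), and none in DESeq2. The set held 32 negative and 11 positive values, where 51.2% of all genes were positive, with a median of -0.09 against 0.00 over all genes. That median was -0.16 without wild type n3, -0.03 without n2 and -0.06 without n1 or without Dnmt3a1_delta_N library 2 or 3. An unadjusted p under 0.05 was found for 4 of the genes, all lower, where 7.98% of all genes had one. Oasl2 had 4.59, 3.66 and 2.19 CPM in Dnmt3a1_delta_N against 6.01, 5.34 and 4.24 CPM in wild type n1, n2 and n3, a log2 difference of -0.57 ± 0.23 (adjusted p = 0.605), with the first mutant library inside the wild type range. Ifit1, which recognises viral RNA caps, had 3.70, 3.48 and 2.63 CPM against 5.5, 4.78 and 3.91 CPM, a difference of -0.52 ± 0.17 (adjusted p = 0.557) without overlap. The synthetase gene Oas1a stood at -0.38 ± 0.23, Ifi44 at -0.36 ± 0.20, Isg15 at -0.34 ± 0.18 and Ifih1 at -0.29 ± 0.11. In 6 genes (Ifih1, Ifit1, Oas2, Trim30a, Dtx3l and Tap1) every mutant library lay below every wild type one, and in none above, against 6.39% and 6.75% of all genes. Ifit3 split within both groups, at 8.64, 3.69 and 2.99 CPM in Dnmt3a1_delta_N and 8.82, 3.87 and 3.40 CPM in wild type, the first library being the high one each time.

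Hippocampus of Dnmt3a1-/- mice gave 1 call among the 42 genes tested (Oas2 and Ifi27l2a were too low), against 0.827% of 15727 genes called lower and 1.69% called higher. Rsad2 (ENSMUSG00000020641) was at 2.29, 2.26 and 2.19 CPM in the mutant against 4.38, 4.49 and 3.55 CPM in wild type, without overlap, and fell by 0.89 ± 0.20 (adjusted p = 0.0353). The call was lost when any library other than wild type 1 was left out. Positive and negative values were equal in number, 21 and 21, and the median was 0.00 against 0.01 over all genes (0.002 and 0.005 to 3 decimals). Gbp2 had 2.20, 2.33 and 3.49 CPM in Dnmt3a1-/- against 5.88, 5.72 and 3.21 CPM, a log2 difference of -0.84 ± 0.27 (adjusted p = 0.117) in which the third libraries overlapped. Lgals3bp had 23.9, 30.6 and 28.1 CPM against 20.5, 23.6 and 18.2 CPM, a difference of 0.39 ± 0.13 (adjusted p = 0.12), the lowest mutant value lying next to the highest of wild type. Oas1b stood at -0.51 ± 0.31, Usp18 at -0.38 ± 0.32 and Bst2 at 0.34 ± 0.22.

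Of the 14 genes that rose in cortex, 7 had a positive value in hippocampus, with a median of 0.00 there against 0.62 in cortex, where they were chosen. Wild type hippocampus library 2 was the highest of its group in 25 of the 44 genes, and some effectors stood far out in it. Ifit1 had 4.93 CPM in that library against 1.73 and 1.30 CPM in wild type 1 and 3, Ifit3 8.24 against 3.69 and 3.07 CPM, and Oasl2 8.86 against 4.38 and 3.48 CPM. Without it the median over the genes was 0.12 and none was called. The difference of the effects itself, hippocampus minus cortex, passed for none of 43 genes in edgeR, as for 0% of all 15433 genes, and for none in DESeq2. Its unadjusted p was under 0.05 for 8 genes, all lower in hippocampus, against 5.03% of all genes, and its median was -0.29, or -0.15 without wild type hippocampus library 2. Usp18 gave -1.26 ± 0.39 (adjusted p = 0.738), Ifit3 -1.07 ± 0.41 (adjusted p = 0.892) and Mx2 -0.98 ± 0.29 (adjusted p = 0.738). Choroid plexus markers summed to 549, 1840 and 59.8 CPM in hippocampus Dnmt3a1-/- against 76.8, 108 and 90.1 CPM in wild type, and their part was not tested.

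Neuron nuclei labelled Dnmt3a1-/- had 36 genes tested, of which 2 rose and none fell, against 0.214% of 15860 genes called higher and 0.0315% called lower. Rnf213 was read at 8.89 and 4.83 CPM in the labelled libraries 1 and 2, against 1.90 and 2.17 CPM in wild type nuclei, and rose by 1.77 ± 0.28 (adjusted p = 0.012). Eif2ak2 (ENSMUSG00000024079), the gene of the kinase PKR that halts translation on double-stranded RNA, had 3.28 and 2.29 CPM against 0.938 and 0.989 CPM and rose by 1.55 ± 0.30 (adjusted p = 0.0431). Both libraries labelled Dnmt3a1-/- lay above both of wild type in these genes. Values were positive for 32 of the 36, against 48% of all genes, with a median of 0.78 against -0.01. In 22 genes the groups were apart upward and in 2 downward, against 19.2% and 19.4% of all genes, so such a gap is common with 2 libraries each. Gbp2, Ifi27l2a, Ifi44, Oas1a, Parp14, Psmb8 and Trim30a were too low in nuclei to be tested. A gene high in 1 group can pass the filter through that group, so these counts describe the 36 and support nothing further.

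The labelled libraries differed in how far they stood above wild type nuclei. Against the wild type median, the first was higher in 36 of the 43 genes and the second in 31. The median log2 differences were 1.00 and 0.34. The first exceeded the second in 35 of the 43 genes, a share not counted over all genes. In it, 3 genes of the oligoadenylate synthetase family were 4.6 to 5.38-fold higher than in the second. Oasl2 had 4.69 and 0.870 CPM in libraries 1 and 2 labelled Dnmt3a1-/- against 0.284 and 0.311 CPM in wild type nuclei, a log2 difference of 3.26 ± 0.91 (adjusted p = 0.398). Oas2 had 4.05 and 0.791 CPM against 0.256 and 0.283 CPM, at 3.21 ± 0.81 (adjusted p = 0.293), and Oas1b 3.28 and 0.712 CPM against 0.398 and 0.254 CPM, at 2.66 ± 0.67 (adjusted p = 0.216). Both labelled libraries exceeded both wild type ones, by unequal amounts. H2-D1 was more even, at 39.1 and 27.8 CPM against 18.4 and 19.0 CPM, a difference of 0.85 ± 0.17 (adjusted p = 0.0578). Irf7 stood at 2.13 ± 0.58. Without the first labelled library the median was 0.43, and without the second it was 1.11. Each of these fits leaves 1 labelled library, so their calls are not read as a result. Microglia markers summed to 36.2 and 41.5 CPM in the labelled libraries against 35.7 and 34.8 CPM, and T and NK markers to 15.4 and 10.2 CPM against 9.60 and 8.36 CPM. Cd4 alone was 15.2 and 10 CPM in the labelled libraries against 9.52 and 8.22 CPM, and the 9 other T and NK markers summed to 0.154 and 0.158 against 0.0852 and 0.141 CPM, with Cd3d, Cd3g, Nkg7, Gzma, Gzmb and Klrk1 at 0 counts in all 4 nuclei libraries. The part of the T and NK list was not tested.

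The difference between the effect in nuclei labelled Dnmt3a1-/- and that in Dnmt3a1-/- cortex passed for none of 43 genes in edgeR, against 0.341% of 17305 genes called either way, and for 2 in DESeq2. An unadjusted p under 0.05 was found for 14 genes higher and 2 lower, against 13.8% of all genes, with a median of 0.44 over the set. Without the first labelled library that median was -0.03, without the second it was 0.63, and without Dnmt3a1-/- cortex library 2 it was 0.28. With the replicate number as a block in cortex, added after seeing the data, Eif2ak2 alone passed, at 1.28 ± 0.26 (adjusted p = 0.0441), against 0.283% of all genes called higher. Isg15 gave 1.53 ± 0.51 (adjusted p = 0.188), Oasl2 2.53 ± 0.94 (adjusted p = 0.293), Rsad2 1.76 ± 0.57 (adjusted p = 0.175), Irf7 1.67 ± 0.62 and Oas1b 2.13 ± 0.82. Wild type nuclei held only 3 and 6 counts of Isg15 and 7 and 7 of Rsad2, near the floor of 3 counts, so their sizes are uncertain. Ifi44 also had a large fitted difference, but its wild type nuclei held 0.0284 CPM and 0 counts, so no fold is given. Of the 14 genes that rose in cortex, 13 had a positive value in nuclei, with a median of 0.86.

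Between the cortex mutants, the effects of Dnmt3a1_delta_N and of Dnmt3a2-/- were each set against that of Dnmt3a1-/-, and both differences share the Dnmt3a1-/- and plain wild type libraries. For Dnmt3a1_delta_N minus Dnmt3a1-/-, none of 43 genes passed in edgeR, against 0.103% of 16456 genes, and DESeq2 called 2. That fit has no replicate block, although the numbers were taken as pairs in both comparisons. With the block, added after seeing the data, 8 genes were lower and none higher, against 1.46% of all genes called lower. These were Oasl2 at -1.34 ± 0.22 (adjusted p = 0.00514), Rnf213 at -0.66 ± 0.11 (adjusted p = 0.00516), Ifit3, Parp12, Lgals3bp, Isg15, Usp18 and Cmpk2. Without the block the median was -0.48, and 21 genes, all lower, had an unadjusted p under 0.05, against 11.4% of all genes. Oasl2 gave -1.33 ± 0.33 (adjusted p = 0.182), Usp18 -1.03 ± 0.27 (adjusted p = 0.186), Isg15 -0.89 ± 0.24 (adjusted p = 0.193) and Ifit1 -1.15 ± 0.36 (adjusted p = 0.274). For Dnmt3a2-/- minus Dnmt3a1-/-, none passed in edgeR, against 0.205% of 16611 genes, 1 did in DESeq2 and 13 had an unadjusted p under 0.05, all lower, against 12.7% of all genes. Its median was -0.76, and -0.17 without wild type r2. Usp18 gave -1.31 ± 0.40 (adjusted p = 0.193) and Ifit3 -1.22 ± 0.51 (adjusted p = 0.378).

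Wild type nuclei and wild type cortex differed in nearly the whole set. Of 43 genes, 37 were lower and 3 higher in nuclei, against 41.8% and 42.1% of 16787 genes, and the median log2 difference was -2.72 against 0.02 over all genes. Of the 3 higher genes, Irf9 and Stat2 code for parts of the complex that carries the type I signal to promoters, and Dhx58 for an RNA helicase. Irf9 had 67.9 and 70.1 CPM in nuclei against 21.9, 19.9 and 17.6 CPM in cortex (1.5 ± 0.10), Stat2 had 86.2 and 73.4 CPM against 28.9, 32.2 and 28.2 CPM (1.12 ± 0.10), and Dhx58 had 6.34 and 4.35 CPM against 2.58, 1.90 and 1.74 CPM (1.06 ± 0.23). No nuclei library overlapped a cortex library in these. Effector and presentation genes were far lower in nuclei, by -4.82 ± 0.18 for H2-K1, -3.90 ± 0.16 for B2m and -4.91 ± 0.19 for Gbp7, while H2-D1 was lower by -1.66 ± 0.10. Gbp2 and Trim30a were also called lower, but wild type nuclei held 5 and 3 counts of Gbp2 and 4 and 3 of Trim30a, close to the floor of 3 counts, so no fold is given. The antiviral effector genes Cmpk2, Mx1 and Oas2 did not pass, with Cmpk2 at 18.8 and 19.5 CPM in nuclei against 15.3, 15.5 and 16.6 CPM in cortex. Cell type, nuclear against whole-cell RNA and preparation cannot be told apart here.

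**Figure D5:**
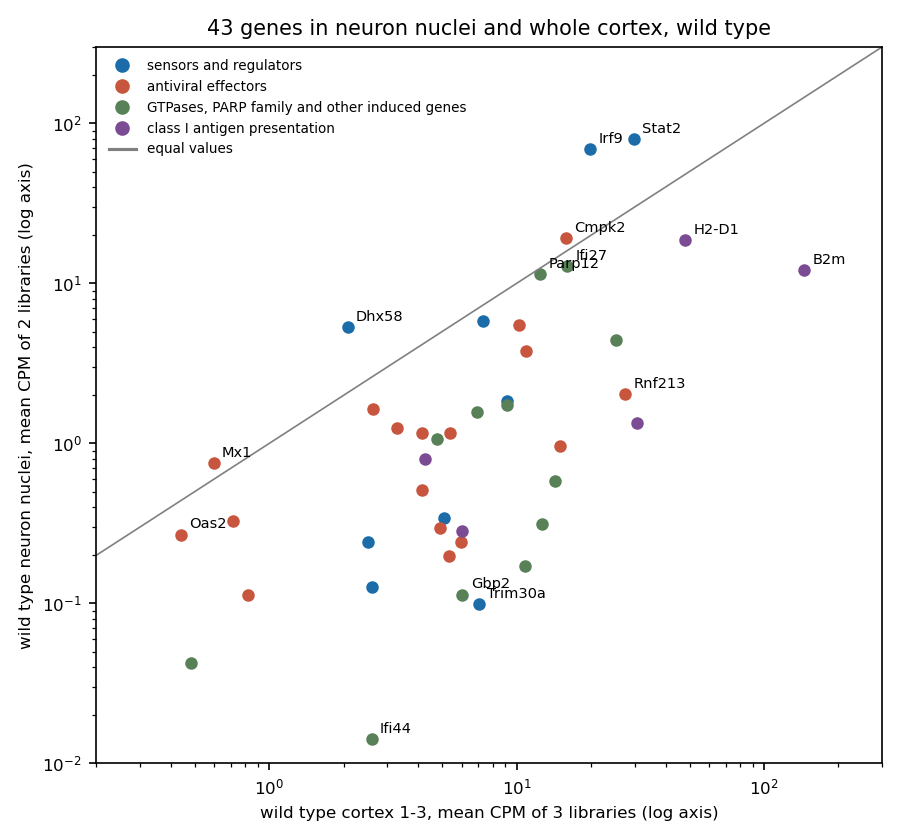
Mean CPM of 2 wild type nuclei libraries (y) against mean CPM of 3 wild type cortex libraries (x), both on log axes, 1 point per gene coloured by role, with a line at equal values. Most of the 43 points lie below the line, and Irf9, Stat2 and Dhx58 lie above it.

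Wild type hippocampus differed less from wild type cortex. Of 43 genes, 9 were lower and 3 higher in hippocampus, against 23.2% and 22.1% of 14897 genes, so the share was near or below that of all genes. Samd9l was lower by -0.95 ± 0.14 (adjusted p = 0.000156), Gbp7 by -0.81 ± 0.14, Ifit2 by -0.77 ± 0.17 and B2m by -0.62 ± 0.11, with B2m at 111, 107 and 80.3 CPM in hippocampus against 150, 144 and 142 CPM in cortex. Ifi27, a mitochondrial protein gene, was higher by 0.38 ± 0.10, Stat2 by 0.34 ± 0.09 and Parp12 by 0.32 ± 0.10. The tissues were counted with different annotations, which may shift a gene's count.

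Over all 26 libraries the mean read share was 111 CPM for B2m, 46.7 for H2-D1, 42.8 for Stat2, 29.1 for Irf9, 26.1 for H2-K1 and 25.2 for Rnf213, which does not rank their levels because length is not taken out. The widest spread over the 8 wild type cortex libraries, as a range of log2 CPM, was 2.92 for Gbp2, 2.34 for Tap1, 2.06 for Gbp3, 2.05 for Ifi44, 2.05 for Ifi27l2a and 2.00 for Oas2. The last pair were read at under 1 CPM throughout wild type cortex. H2-K1 and H2-D1, Oas1a and Oas1b, Ifit3 and Ifit3b, Mx1 and Mx2, and the GBP genes have close relatives that can share reads, and Parp9 with Dtx3l, Ifi27 with Ifi27l2a and B2m with Patl2 overlap in RefSeq, so their separate counts are less certain.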

How the data were processed

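Messenger RNA of cortex, hippocampus and sorted neuron nuclei was measured in 26 libraries in 10 groups of the 75 samples of the series, and the other 49 samples were not analysed here. Per the submitters' processing notes, STAR 2.5.4a, HTSeq 0.11.0 and build mm9 were used, and per the labels' protocols the kit was stranded. The strand setting and annotation release are not given in the sources used here. Reads of overlapping or antisense genes may therefore be mixed. The authors deposited 1 file per library, which gives counts: the reads assigned to each gene, as whole numbers and without scaling. Lines that name no gene, 21.14% to 36.97% of reads per library, were left out of totals and tests. No 2 libraries of a group agreed within counting noise. Floors of 3 counts cover counting error only.

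Counts were tested over all genes with edgeR 4.0.16 in R 4.3.3 (filterByExpr, TMM scaling, robust quasi-likelihood F-test, two-sided), adjusted by Benjamini-Hochberg. Calls were made at an adjusted p under 0.05, and the standard error (SE) was derived from the F statistic. Each fit held the compared groups only, and differences of effects were interaction contrasts, over shared identifiers across tissues. Alternatives were DESeq2 1.42.0, other size factors, no filter, all 8 wild type cortex libraries, a replicate block (for differences of effects only within the paired cortex series, chosen after seeing the data) and each library left out. CPM use the gene totals, and gaps between groups were counted on TMM-scaled values. The fit recovered known changes when tested on simulated data. Those changes were planted only in genes above a set mean count, each at a fold larger than several called here. Smaller changes and genes of few reads were not checked.

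The genes, the 6 pathway lists and the 11 marker lists were chosen with earlier results of these data known. One gene of a pathway list is not reported here and was left out of its counts. Per comparison, up to 12 called genes by smallest p were named, and where fewer than 4 were called, those with the largest log2 fold change up to 6, with up to 4 called genes per pathway list. The 6 genes with the most reads and the 6 with the widest wild type range were also named. Same-numbered libraries correlated, in deviations from group means, at 0.237, 0.376 and 0.184 between Dnmt3a1-/- and wild type cortex, and at 0.373, 0.24 and 0.419 between Dnmt3a1_delta_N and wild type. All were over 0.1, so these numbers were taken as pairs from the values alone. Promoter sequences are RefSeq's on GRCm38.p6, used apart from the mm9 counts. No mm9 annotation was used, so gene positions are not given.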

Additional observations from a re-analysis of the deposited data

Results flagged for a closer look

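Wild type cortex library r2 lay beyond the others in 13 genes, by the gap to its nearest neighbour over the range of the 8 wild type cortex libraries (Dixon's value of 0.526). Chance flags about 1 in 20 groups of values in such a test, and r2 was the library in question each time. Among regulators, Irf1 stood at 14.8 CPM and Isg15 at 5.92 CPM. Among antiviral effectors, Oasl2 stood at 10.4 CPM, Cmpk2 at 24.5 CPM and the receptor-transporting protein gene Rtp4 at 6.94 CPM. The GBP genes Gbp2, Gbp3 and Gbp7 had 31.2, 27.6 and 30.7 CPM, and Ifi44, a gene of unclear antiviral action, 8.15 CPM. Class I genes had 219 CPM for B2m, 57.0 for H2-K1, 81.0 for H2-D1 and 12.7 for Tap1. The 8 libraries share strain, genotype, tissue and age in their labels, and the numbering series of the other 6 differs from that of r1 and r2.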

How the results depend on the processing

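No gene or count changed direction among calls under any alternative. The number of genes called in cortex Dnmt3a1-/-, 14 in all, was 8 to 20 when 1 library was left out, against 1599 to 2725 over all genes. It was 23 with the replicate block, where the pairing came from the values alone and calls over all genes went from 2845 to 4941. Cortex Dnmt3a2-/- had 0 to 13 with 1 library left out and 3 (Gbp7, Ifi44 and H2-K1, lower) with the block, whose numbers, with 2 libraries a group and a correlation of 0.111, were not taken as pairs. Over all genes, Dnmt3a2-/- had 55 of 15929 called with the block, against 1 in the edgeR fit as described. Dnmt3a1_delta_N had 0 genes of the set called in every fit. Hippocampus had 0 to 1 with a library left out, 0 with the block and 3 without the filter on low counts, against 1039 of 31185 genes. Its same-numbered libraries correlated at -0.056, 0.272 and 0.026 and did not pair. Beside the set's counts given next, calls over all genes in nuclei were 79 of 15860 by DESeq2 and 243 of 23842 without the filter. They were 740 of 15860 with the block, against 39 in the edgeR fit as described. Nuclei had 0 to 16 with a library left out, 6 by DESeq2, 12 without the filter and 14 with the block (correlation 0.297, 2 libraries a group, not taken as pairs).

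Differences of effects called no gene in the edgeR fit as described. Dnmt3a1_delta_N minus Dnmt3a1-/- had 2 by DESeq2, 1 without the filter and 0 to 4 with a library left out (4 without Dnmt3a1_delta_N library 1). Over all genes the calls were 102 of 16456 by DESeq2, 67 of 26037 without the filter and 184 of 16715 without that library. Dnmt3a2-/- minus Dnmt3a1-/- had 1, 20 and 0 to 15 (15 without wild type r1), and labelled nuclei minus cortex 2, 10 and 0 to 9 (9 without labelled library 2). Hippocampus minus cortex had 0 throughout. With the replicate block in the cortex series whose numbers pair, added after seeing the data, Dnmt3a1_delta_N minus Dnmt3a1-/- had 8, all lower, and labelled nuclei minus cortex 1, while the 2 other differences had 0. With a library left out, the median for wild type nuclei against cortex ran from -2.844 to -2.759. Wild type hippocampus against cortex had 8 to 12 calls in such fits, against 5466 to 7246 over all genes. The causes of these moves were not tested. With 1 library left in an arm, that library is assumed to vary like the others of the fit. Counts from such fits, in Dnmt3a2-/- cortex, in nuclei and in their differences, only list how calls moved and support nothing further. Leaving r2 out of all 8 controls, chosen after seeing the data, gave 17 calls in cortex Dnmt3a1-/- and 0 in the 2 other cortex mutants. Genes under about 1 CPM rest on few reads in the shallowest libraries.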

Other observations

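The response element core was found in the promoter windows of 2 of the 11 genes that rose in cortex Dnmt3a1-/- and had a window (Ifit3 and Isg15). It was found for 12 of the 22 other genes with a window, in 13 of their 28 windows. These 22 include Psmb9, which was not tested in cortex. The gamma-activated site was found for 0 of the 11 genes and 8 of the 22. For Rtp4, Dhx58, Mx1, Parp9, Oas2, Oas1b, Ifi27, Usp18, Ifi27l2a, Mx2 and Parp14 no window was used here, so 3 of the 14 genes that rose are not in this count. Of the 13 genes in which wild type r2 stood apart, 12 had windows, 15 in all, and 5 of these held the core.

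Within groups, the library that was highest most often was Dnmt3a1-/- library 3 in cortex, in 23 of 43 genes, against wild type library 1, in 29 of 43. In Dnmt3a1_delta_N it was library 1, in 25 of 43, against n1 and n2, with 20 each.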
